A study of Mus musculus with 12 samples.

Results

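The ribosome-bound RNA of 9 genes of interleukin 6 (IL-6) family signalling was followed in enteric glial cells (EGCs), the glia of the gut's own nervous system, before and 3 h after surgical handling of the mouse small intestine. The members were chosen by gene name, with earlier results of these data known. All 9 were found among the 12975 genes of the count table. They are the ligands Lif, Il6 and Clcf1, the receptor chains Il6st, Lifr and Osmr, the transcription factor Stat3, and the feedback inhibitors Socs3 and Cish. Their counts, set beside shares over all genes, describe the data and are no independent test.

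All mice carried PLPCreERT2, a tamoxifen-inducible Cre transgene that the study used to target EGCs, and Rpl22HA, an allele from which Cre switches the ribosomal protein Rpl22 to an HA-tagged form (the RiboTag system). All were 10 to 12 weeks old and all, controls included, received 2 intraperitoneal injections of 100 µl tamoxifen at 15 mg/ml, with tissue taken 3 to 4 weeks later. Muscularis externa, the muscle coat with the myenteric plexus, came from 3 naive mice (T0, numbered 1, 2 and 4) and from 3 mice at 3 h after intestinal manipulation (T3, numbered 1, 3 and 4). The homogenate of each mouse was split between an anti-HA antibody, which precipitates tagged ribosomes, and an isotype control IgG1, so 6 mice gave 12 libraries in 4 groups of 3. The T3 mice also had anesthesia and a laparotomy, and with no sham-operated group analysed here, the contributions of surgery, anesthesia and handling cannot be told apart.

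Cytokines of the IL-6 family bind specific receptor chains that pair with the shared signalling chain gp130, the product of Il6st. LIF signals through LIFR with gp130, oncostatin M through OSMR with gp130, and IL-6 through IL-6Rα with a pair of gp130 chains. The receptors activate JAK kinases, which phosphorylate STAT3, and STAT3 enters the nucleus and switches on target genes. Among these targets is Socs3, whose protein binds gp130 and JAKs and shuts the signal down, while Cish, a relative of Socs3, is best known as a target and inhibitor of STAT5. In nervous tissue, LIF and its relatives are known as injury cytokines and as signals that drive astrocytes to express Gfap.

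Sequence from around the transcript start is shown first, for the members with the largest changes. The stretches of Lif, Il6 and Socs3 lie upstream of the RefSeq start, and that of Cish spans it. RefSeq promoter windows on GRCm38.p6, from 250 bases before to 50 bases after a transcript start, were found for 8 of the 9 members, as 9 windows. In each sequence, written 5′ to 3′ along the gene, capitals mark matches to 3 motifs: the STAT motif TTCNNNGAA, the AP-1 motif TGANTCA, and the NF-kB motif.
Lif, chr11:4257318-4257556, plus strand: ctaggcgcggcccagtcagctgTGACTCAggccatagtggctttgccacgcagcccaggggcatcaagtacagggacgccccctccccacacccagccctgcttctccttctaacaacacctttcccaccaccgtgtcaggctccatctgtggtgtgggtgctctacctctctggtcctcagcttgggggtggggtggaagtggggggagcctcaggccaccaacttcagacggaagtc
Il6, chr5:30012864-30013113, plus strand: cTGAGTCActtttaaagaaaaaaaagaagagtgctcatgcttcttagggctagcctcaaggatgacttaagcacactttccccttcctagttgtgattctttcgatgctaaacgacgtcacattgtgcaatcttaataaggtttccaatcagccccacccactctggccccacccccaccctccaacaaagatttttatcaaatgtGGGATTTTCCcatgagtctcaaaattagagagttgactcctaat
Socs3, chr11:117969452-117969616, minus strand: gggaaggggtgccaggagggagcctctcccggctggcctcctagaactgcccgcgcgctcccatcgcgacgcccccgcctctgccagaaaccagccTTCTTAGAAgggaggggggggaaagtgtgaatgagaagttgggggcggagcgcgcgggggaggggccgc
Cish, chr9:107296654-107296683, plus strand: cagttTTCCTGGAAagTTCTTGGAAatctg

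The STAT motif was matched in the windows of both feedback inhibitors and in no other member's window. Socs3 held 1 match, TTCTTAGAA, beginning 154 bases before the RefSeq start. That place lies inside the span of the Socs3 gene in GENCODE M21, which reaches chr11:117970047. Cish held 2 matches in tandem, TTCCTGGAA and TTCTTGGAA, beginning at bases 1 and 12 of the transcript, in a stretch that GENCODE M21 annotates as the first exon of a longer Cish transcript. Of 32851 promoter windows of 300 bases, 8.30% held at least 1 STAT match on either strand and 0.457% held 2 or more. The AP-1 motif was matched in Lif at base -228, in Il6 at base -249 and in Osmr at base 4, against 7.81% of all windows, and the NF-kB motif in Il6 at base -44, against 4.51%. The CRE motif TGACGTCA, held by 1.79% of all windows, was matched in no member, and the windows of Stat3, Il6st and Lifr matched none of the 4 motifs. These are letter matches on a reference sequence, with no measurement of binding.

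**Figure D1:**
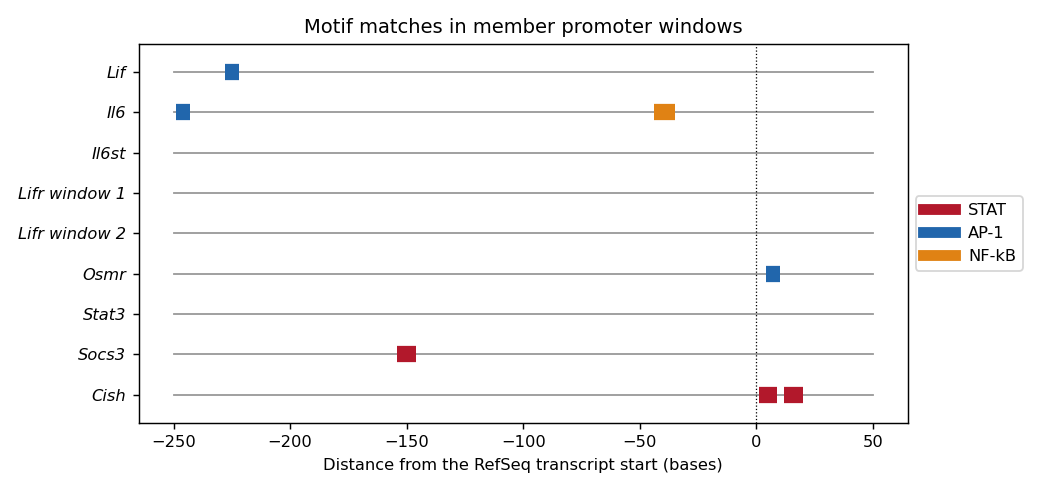
Positions of motif matches (coloured blocks) in the RefSeq promoter windows of 8 members, with distance from the transcript start in bases on the x axis and 1 line for each of 9 windows. The 3 STAT matches lie in Socs3 and Cish, and the 3 AP-1 matches in Lif, Il6 and Osmr.

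On GRCm38 in the GENCODE M21 annotation, Lif lies at chr11:4257557-4272514, Stat3 at chr11:100885098-100939540 and Socs3 at chr11:117966079-117970047. Osmr at chr15:6813577-6874969 and Lifr at chr15:7090614-7197489 are near neighbours. Il6 lies at chr5:30013114-30019981, Cish at chr9:107296026-107302784, Il6st at chr13:112464070-112510086 and Clcf1 at chr19:4214238-4223490. Reads were counted near 3′ ends, and the counted end of Stat3 meets that of Stat5a on the other strand, while that of Cish meets the annotated gene Gm17041. Whether counting used strand is not given in the sources used here, so in those places reads of the partners may not be told apart.

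Library totals ran from 1221788 to 2870591 counts in HA and from 88136 to 1289833 in IgG, and the IgG T3 libraries (88136 to 248522) were the shallowest. Levels are given in CPM, counts scaled to the library total, and 3 counts, taken as the most that a count of 0 allows, stood for 1.05 CPM in the deepest library and 34.0 in the shallowest, for counting error only. Glial markers were higher in HA than in IgG for 12 of 12 tested at T0 and 8 of 12 at T3. Of all genes tested, 16.0% were higher in HA at T0 and 11.8% at T3. Rpl22 itself was at 83.3 ± 9.02 CPM (SD, n = 3) in HA T0 against 23.8 ± 7.60 in IgG T0. The HA libraries were not purely glial. Summed smooth muscle markers stood at 14436 to 27699 CPM in HA and 45185 to 74034 in IgG. Markers of interstitial cells of Cajal, the pacemaker cells, were higher in HA for 3 of 4 tested at T0 and 3 of 3 at T3. The shares over all genes are those given above.

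At 3 h post-injury, 8 of the 9 members rose in the HA pull-down and none fell. The rise was greatest for Lif, Socs3 and Il6, followed by Cish, Osmr and Stat3, and was below 2-fold for Clcf1 and Il6st, while Lifr did not pass the test. The edgeR quasi-likelihood test across 9441 genes called 18.7% of genes higher and 15.1% lower at an adjusted p under 0.05, 15.6% had every T3 library above every T0 library in CPM as the same 8 members did, and the median log2 fold change was 3.01 for the members against -0.02 for all genes tested. At an unadjusted p under 0.05, 8 members were higher and 0 lower, and DESeq2 also called 8 higher and 0 lower. Lif and Il6 passed the filter on low counts only through the HA T3 libraries, so a fall in either could not have been called. In bulk pull-downs, fewer cells of a type and less RNA per cell cannot be told apart.

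Lif encodes leukaemia inhibitory factor, and it is one of the factors that the study itself picked from these libraries. The HA T0 libraries held 10, 2 and 2 Lif counts (3.84, 1.12 and 0.697 CPM for mice 1, 2 and 4), and the HA T3 libraries 225, 236 and 326 (184, 158 and 254 CPM for mice 1, 3 and 4). The 2 groups were far apart, with naive mouse 1 the highest of the low group. The log2 fold change was 6.90 ± 0.38 (SE), about 120-fold, with an adjusted p = 1.47e-09, and it ranked 10th from the top of the 9441 genes. Leaving out naive mouse 1 raised it to 8.01, since that mouse held most of the Lif counts at T0.

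Il6, the founding cytokine of the family, showed 5, 1 and 1 counts in HA T0 and 36, 35 and 18 in HA T3. These were 1.92, 0.559 and 0.348 CPM against 29.5, 23.4 and 14.0 CPM, so every injured mouse stood above every naive one. The log2 fold change was 4.70 ± 0.50 (adjusted p = 3.94e-07). Among the injured mice, mouse 4 had the highest Lif and the lowest Il6 level of the 3. As for Lif, naive mouse 1 was the highest of its group, and without it the log2 fold change was 5.74.

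Clcf1 encodes cardiotrophin-like cytokine factor 1, a ligand of the ciliary neurotrophic factor receptor. Unlike Lif and Il6 it was present in naive HA libraries, at 26.5, 34.1 and 33.8 CPM, and stood at 58.1, 44.1 and 45.2 CPM in HA T3. The groups did not overlap, but the rise was small, with a log2 fold change of 0.91 ± 0.22 (adjusted p = 0.00356), and in a fit of all 12 libraries the call was lost at a log2 fold change of 0.92 (adjusted p = 0.0628).

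**Figure D2:**
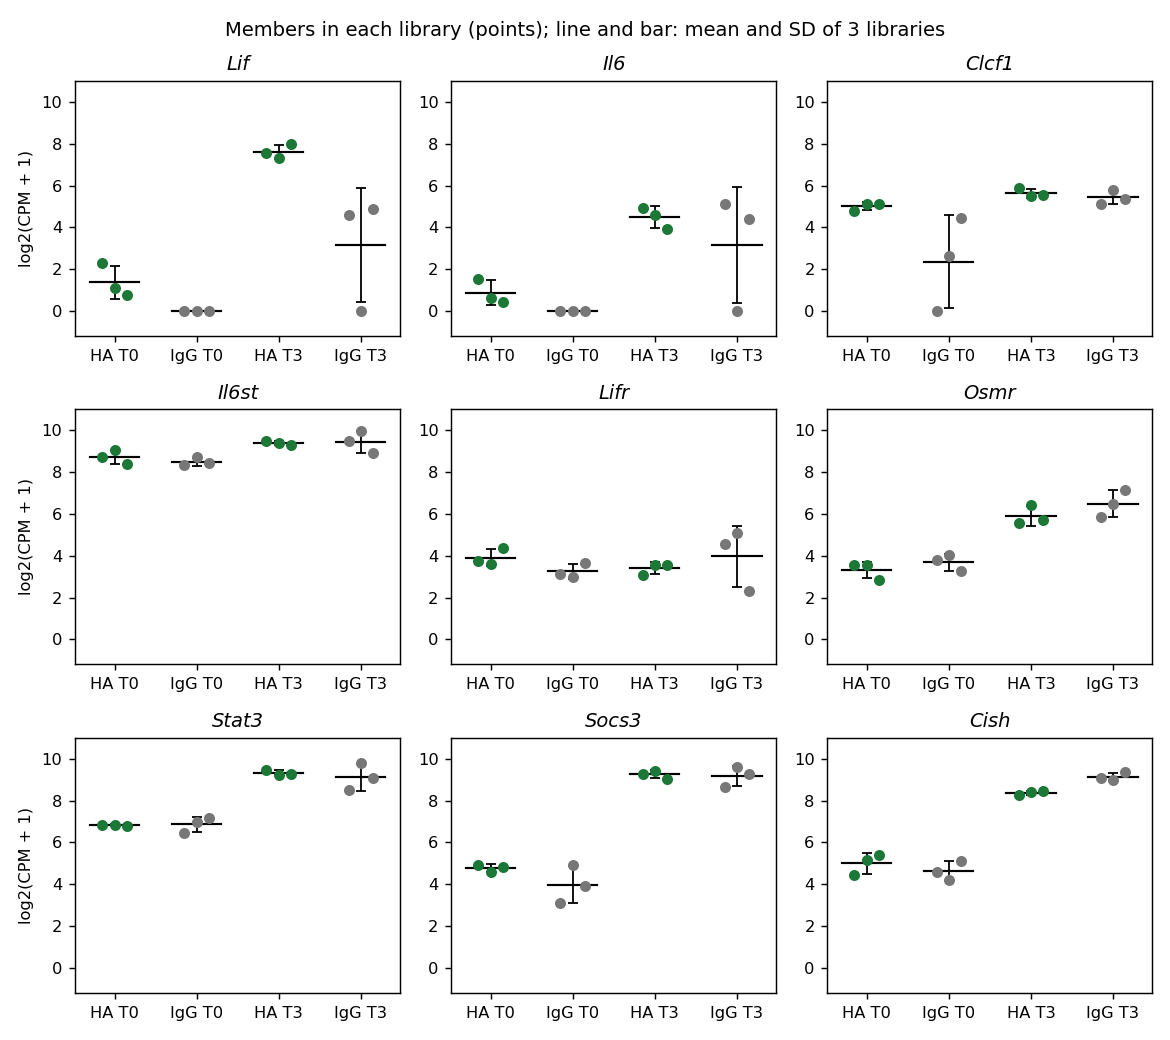
Level of each member as log2(CPM + 1) in every library (points, green for HA and grey for IgG), with the mean and SD of 3 libraries per group. In HA, 8 members lie higher in each T3 library than in any T0 library, and Lifr lies lower.

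Of the receptor chains, Osmr rose most. Osmr, the oncostatin M receptor, was at 10.7, 10.6 and 6.27 CPM in HA T0 and at 46.7, 85.6 and 50.6 CPM in HA T3. Mouse 3 stood above the other injured mice, and the groups were well apart (log2 fold change 3.01 ± 0.31, adjusted p = 2.52e-07). Il6st, the shared gp130 chain, was at 424, 528 and 340 CPM in HA T0 and 725, 675 and 621 CPM in HA T3, without overlap and with a log2 fold change of 0.90 ± 0.19 (adjusted p = 0.000880).

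Lifr, the specific chain of the LIF receptor, was at 12.3, 11.2 and 19.9 CPM in HA T0 and 7.37, 10.7 and 10.9 CPM in HA T3. In CPM each T3 library lay below each T0 library, as it did for 35.2% of genes tested. The fit, which rescales the libraries by the trimmed mean of M-values (TMM), gave a log2 fold change of -0.32 ± 0.34 (adjusted p = 0.506). Scaling by total counts, which moved the median over all genes to -0.29, gave -0.59 (adjusted p = 0.185), so neither scaling called a change in Lifr.

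Stat3 and both feedback inhibitors rose in HA. Stat3 was at 114, 115 and 108 CPM in HA T0 and 710, 598 and 628 CPM in HA T3 (log2 fold change 2.79 ± 0.18, adjusted p = 1.67e-10). Its SD was 3.17% of the mean in the naive HA libraries, against 12.8% for Socs3 and 32.7% for Cish. Socs3 went from 29.6, 22.9 and 27.5 CPM to 623, 689 and 531 CPM, about 27-fold, with a log2 fold change of 4.78 ± 0.21 (adjusted p = 7.13e-13). Cish went from 20.7, 34.6 and 41.5 CPM to 306, 336 and 350 CPM (log2 fold change 3.63 ± 0.22, adjusted p = 1.12e-10). For these 3 genes the lowest T3 library exceeded the highest T0 library several times over. The promoter windows of Socs3 and Cish were those that held the STAT motif, and that of Stat3 held none. Whether these letter matches bear on the rises was not tested.

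The same question was asked of the IgG pull-down, which samples RNA that sticks to beads and antibody from the whole muscularis. There, 4 of the 6 members tested rose (Socs3, Cish, Osmr and Stat3) and none fell, against 4.43% of 5219 genes called higher and 1.03% lower. At an unadjusted p under 0.05 all 6 were higher and 0 lower, and DESeq2 called 4 higher and 0 lower. Lif, Il6 and Lifr were too low for the filter on counts and were not tested.

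Socs3 was at 7.73, 29.1 and 14.0 CPM in IgG T0 and 397, 772 and 616 CPM in IgG T3 (log2 fold change 5.08 ± 0.43, adjusted p = 5.54e-06). Cish was at 23.2, 17.1 and 34.1 CPM in IgG T0 and 533, 511 and 660 CPM in IgG T3 (4.43 ± 0.36, adjusted p = 3.81e-06). Both inhibitors thus stood far above naive levels in all 3 injured mice also in the control pull-down. Stat3 was at 87.6, 125 and 142 CPM in IgG T0 and 363, 880 and 535 CPM in IgG T3, with a log2 fold change of 2.28 ± 0.35 (adjusted p = 0.00105). Osmr was at 12.9, 15.4 and 8.53 CPM in IgG T0 and 56.7, 86.9 and 141 CPM in IgG T3, with a log2 fold change of 3.11 ± 0.49 (adjusted p = 0.00119). Without the IgG T3 library of mouse 4, which held 35 of the 48 Osmr counts of that group, the log2 fold change was 2.49 and the call was lost (adjusted p = 0.0706).

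Il6st and Clcf1 did not pass the test in IgG, although neither overlapped between times, which held for 13.4% of genes in that direction. Il6st was at 327 to 417 CPM in IgG T0 and 479 to 989 CPM in IgG T3 (log2 fold change 0.96 ± 0.29, adjusted p = 0.0803). Clcf1 had 0, 3 and 27 counts in IgG T0 and 3, 5 and 10 in IgG T3, or 0 to 20.9 CPM and 34.0 to 54.3 CPM (1.84 ± 0.75, adjusted p = 0.174). Without the IgG T0 library of mouse 4, which held 27 of the 30 naive counts, its log2 fold change was 3.64 (adjusted p = 0.0970).

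Lif and Il6 had no count in any IgG T0 library, of 2261443 counts in all, which allows 1.33 CPM for the group. In IgG T3, Lif had 2, 0 and 7 counts and Il6 had 3, 0 and 5. Summed over the group this was 21.0 CPM for Lif and 18.7 CPM for Il6, or 15.8 and 14.1 times the naive group's floor. The 95% exact Poisson intervals in IgG T3 were 9.60 to 39.9 CPM for Lif and 8.06 to 36.8 CPM for Il6. Such intervals, from counts summed over the mice, hold counting error only and leave out the spread between mice. In IgG T0 the upper limit was 1.63 CPM for each. The IgG library of injured mouse 3 held none of either. Lifr had 22 counts in IgG T0 and 6 in IgG T3, which gives 9.73 CPM and 14.0 CPM with a 95% exact Poisson interval of 5.14 to 30.5 CPM for the latter, so no change was detectable at this depth.

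**Figure D3:**
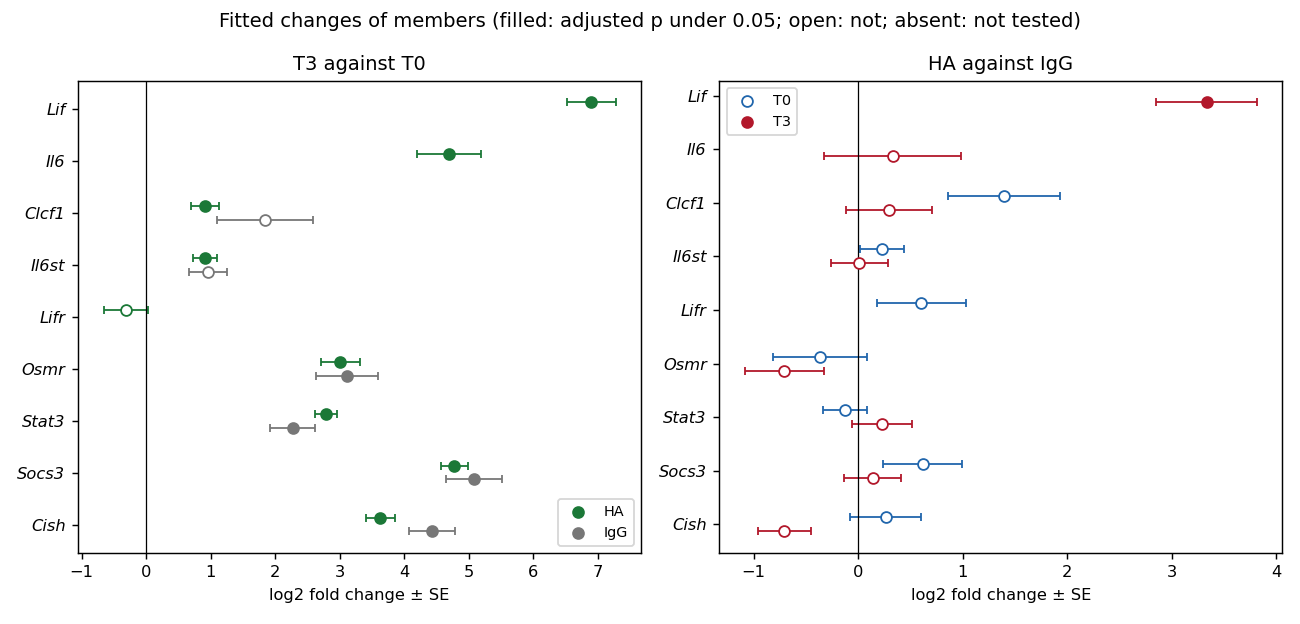
Log2 fold changes with SE for the 9 members, at left T3 against T0 in HA and IgG and at right HA against IgG at T0 and T3. Filled points have an adjusted p under 0.05; Lif lies furthest to the right in both panels, at 6.90 in HA with time and at 3.34 for HA against IgG at T3.

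HA and IgG libraries were next compared at each time to ask which members were richer in the tagged ribosomes than in the background of the same homogenate. In naive tissue 0 of the 7 members tested differed, while 30.3% of 9823 genes did. One member was higher at an unadjusted p under 0.05, and DESeq2 called 1. That member was Clcf1, at 26.5 to 34.1 CPM in HA against 0 to 20.9 CPM in IgG, with a log2 difference of 1.40 ± 0.54 (adjusted p = 0.0714). Fitted with the mouse as a replicate block it passed, at 1.58 (adjusted p = 0.0172). Leaving out the control library of mouse 4, which held 27 of the 30 IgG counts, gave 3.33 (adjusted p = 0.00302).

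The other tested members lay between -0.37 ± 0.45 for Osmr and 0.62 ± 0.38 for Socs3 on the log2 scale at T0. Socs3 passed the threshold only without the IgG library of naive mouse 2 (1.14, adjusted p = 0.0492). Lif and Il6 had 14 and 7 counts in HA T0, of which mouse 1 held 10 and 5. In each naive mouse both lay under the floor of 3 counts in that mouse's IgG library (2.33 to 7.73 CPM), so within a mouse no difference between pull-downs was detectable at this depth. Summed over the group, Lif was at 1.93 CPM in HA T0, 1.45 times the IgG T0 floor of 1.33 CPM. Its 95% exact Poisson interval of 1.05 to 3.23 CPM overlapped the IgG upper limit of 1.63 CPM. Il6, at 0.964 CPM, lay under the floor.

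At T3 Lif alone among 8 members tested was higher in HA, and none was lower. The test called 11.8% of 7200 genes higher and 10.2% lower. Lif stood at 199 ± 49.6 CPM (SD, n = 3) in HA T3 and 17.0 ± 14.9 CPM in IgG T3, a log2 difference of 3.34 ± 0.48 (adjusted p = 9.93e-05). Within a mouse, Lif was 8.12-fold higher in HA for mouse 1 and 9.01-fold higher for mouse 4. For mouse 3 the IgG library had no count, and HA was at least 4.84-fold above that library's floor of 32.6 CPM. Leaving out each library in turn kept the log2 difference between 3.04 and 4.41, with adjusted p no higher than 0.00239.

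Cish lay in the other direction. It was lower in HA than in IgG in all 3 injured mice, at 0.574, 0.659 and 0.531 of the IgG level for mice 1, 3 and 4, and its groups did not overlap, as for 16.4% of genes in that direction. The log2 difference was -0.71 ± 0.25 and just missed the threshold (adjusted p = 0.0541). It was past it with DESeq2's size factors as scaling (adjusted p = 0.0452), with total counts (0.0264), in the DESeq2 Wald test (0.0130) and without the IgG T3 library of mouse 3 (0.0497). In the other 9 of 13 alternatives, the fit with the mouse as a block among them, Cish stayed uncalled. Over all alternatives its log2 difference ran from -0.81 to -0.39 and its adjusted p reached 0.369.

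The remaining members overlapped between pull-downs at T3. Socs3 was at 614 ± 79.2 CPM in HA T3 and 595 ± 188 CPM in IgG T3, a log2 difference of 0.14 ± 0.27 (adjusted p = 0.763). Stat3 was at 645 ± 58.1 CPM and 593 ± 263 CPM (0.23 ± 0.29, adjusted p = 0.612). Both means were close, but a p that misses the threshold does not show equal levels, and the IgG spread was wide. Osmr was at 61.0 ± 21.4 CPM in HA T3 and 94.8 ± 42.6 CPM in IgG T3 (-0.71 ± 0.38, adjusted p = 0.196), Il6st had a log2 difference of 0.01 ± 0.27 and Clcf1 one of 0.29 ± 0.41. Il6 was at 22.3 ± 7.78 CPM in HA T3 and 18.1 ± 17.1 CPM in IgG T3, where it rested on 8 counts (0.33 ± 0.65, adjusted p = 0.763). The comparisons of HA with time and of HA with IgG at T3 share the HA T3 libraries.

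For context, of the 1765 genes that rose in HA with time, 1639 were tested against IgG at T3, and 22.6% of these were higher and 6.41% lower in HA. Markers of other cells also differed between the pull-downs. Summed macrophage markers were at 240 to 401 CPM in HA T3 and 685 to 833 CPM in IgG T3, none of 12 at 0 in either group. Of 5 tested, 3 were lower in HA, against 10.2% of all genes. The 4 neutrophil and monocyte markers analysed, of 11 listed, summed to 6.27 to 16.2 CPM in HA T0, 22.1 to 116 CPM in HA T3 and 43.5 to 250 CPM in IgG T3, and they did not move together. S100a9 was at 0.348 to 1.15 CPM in HA T0 and 16.7 to 98.2 CPM in HA T3, and S100a8 at 0 to 0.384 and 0.669 to 18.0 CPM. Plac8 lay the other way, at 4.88 to 10.6 CPM in HA T0 and 0 to 4.01 CPM in HA T3, and Ccr2 overlapped between times. Ly6g, Cxcr2 and Csf3r were among those not analysed here. The part of these cells in the members' levels was not tested.

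The interaction of antibody and time, fitted over all 12 libraries, asked whether members changed differently in HA and IgG. It called 0 of the 9 members, against 0.33% of 10314 genes. None had an unadjusted p under 0.05, against 1081 of all genes, and DESeq2 also called 0. The lowest adjusted p was 0.550 for Cish, whose log2 change with time was 0.71 ± 0.40 lower in HA than in IgG. For Stat3 the change was 0.61 ± 0.36 higher in HA (adjusted p = 0.586), and for Socs3 it was 0.23 ± 0.44 lower (adjusted p = 0.900). For Lif and Il6, with no count in IgG T0, the fitted value (-0.57 ± 0.79 for Lif) turns on how a count of 0 is treated, and the difference could not be resolved at this depth.

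The wider pathway was read from 5 lists with 58 genes, of which 50 were analysed. The lists too were chosen with earlier results of these data known, so their counts are likewise a description. In HA T3 against T0, 27 of the 43 tested rose, 16 did not pass and none fell, where 18.7% of all genes were higher and 15.1% lower, with a median log2 fold change of 1.22 against -0.02 over all genes. At an unadjusted p under 0.05, 30 were higher and 0 lower, and DESeq2 called 27 higher and 0 lower. Some genes very low in HA T0, Cebpd and Lcn2 among them, passed the filter only through HA T3, so a fall in these could not have been called. In IgG, 10 of 26 tested rose and none fell, against 4.43% of all genes called higher and 1.03% lower, and the median log2 fold change was 1.15 against -0.02 over all genes. There, 13 were higher and 0 lower at an unadjusted p under 0.05, and 11 were higher and 0 lower by DESeq2.

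Among the other ligands, Il11, a gp130 cytokine, rose in HA with a log2 fold change of 3.43 ± 0.72 (adjusted p = 0.00422). Its counts were low, at 8, 4 and 1 in HA T0 and 8, 18 and 41 in HA T3, and mouse 4 carried most of the T3 counts; without its library the log2 fold change was 2.60. Ctf1 and Ebi3 were too low to be tested. Osm, Cntf, Ctf2, Il27 and Il31 were not analysed here.

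Of the other receptor chains, Il6ra, which gives IL-6 its specific receptor, had a log2 fold change of 1.07 ± 0.38 in HA (adjusted p = 0.0403), although its groups overlapped at 6.97 to 18.4 CPM in T0 and 14.7 to 31.9 CPM in T3. Its call was lost in 5 of 13 alternatives. In naive tissue Il6ra was lower in HA than in IgG (-1.14 ± 0.39, adjusted p = 0.0400), a call that was lost in 7 of 13 alternatives. Cntfr, which binds ciliary neurotrophic factor and Clcf1, was higher in HA than in IgG at both times, by 2.28 ± 0.33 at T0 (adjusted p = 0.000163) and 2.32 ± 0.61 at T3 (adjusted p = 0.0103). The T3 call was lost without the IgG library of mouse 4. With time Cntfr had a log2 fold change of 0.13 ± 0.26 in HA and did not pass (adjusted p = 0.736). Il11ra1 did not pass either.

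Among kinases and other STATs, 3 of 8 tested rose in HA, against 18.7% of all genes, and 5 did not pass; the median log2 fold change of the 8 was 0.44. Stat5a rose by 1.36 ± 0.28 (adjusted p = 0.000775), Stat2 by 0.96 ± 0.25 (adjusted p = 0.00553) and Jak1 by 0.71 ± 0.19 (adjusted p = 0.00689) on the log2 scale. The Jak1 call was lost with total counts as scaling and in the fit of all 12 libraries. Jak2, Tyk2, Stat5b and Stat6 were among those that did not pass. Stat5a shares its 3′ end with Stat3, as described above.

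Besides the members, 6 of 11 inhibitor genes tested rose in HA, against 18.7% of all genes. Ptpn2, a phosphatase of JAKs and STATs, rose from 11.9, 15.1 and 11.5 CPM to 79.4, 88.3 and 62.3 CPM (log2 fold change 2.86 ± 0.24, adjusted p = 1.20e-08). Socs1 rose from 8.01 to 9.60 CPM to 30.3 to 39.7 CPM (2.24 ± 0.28, adjusted p = 3.04e-06). Neither overlapped between times in HA. Socs5 rose by 1.76 ± 0.20, Socs2 by 1.69 ± 0.21, the phosphatase Ptpn1 by 1.40 ± 0.23 and Socs7 by 0.93 ± 0.24 on the log2 scale. Of the PIAS proteins, which bind STATs in the nucleus, Pias1, Pias3 and Pias4 were tested and did not pass, nor did Socs6 and Ptpn11.

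Of the genes known as STAT3 targets, 16 of 19 tested rose in HA, against 18.7% of all genes. The median log2 fold change of the list was 3.01. Several of them are also switched on by other pathways, among them the immediate early genes Junb (5.72 ± 0.24), Fos (4.68 ± 0.24) and Myc (4.69 ± 0.35). The acute phase regulators Cebpd and Cebpb rose by 8.26 ± 0.54 and 3.30 ± 0.20. Cebpd had 0, 1 and 0 counts in HA T0 and 78, 88 and 47 in HA T3, so the size of its rise rests on 1 count, and it was 9.82 without the HA T0 library of mouse 2 that held it. Bcl3, a partner of NF-kB, rose by 3.57 ± 0.26. The secreted proteins Timp1, a protease inhibitor, and Lcn2 rose by 4.51 ± 0.24 and 3.33 ± 0.45, Saa3 by 2.71 ± 0.28 and Serpina3n by 2.18 ± 0.27. Pim1 (3.01 ± 0.62), Ccnd1 (1.79 ± 0.18), Mcl1 (1.68 ± 0.18), Bcl6 (1.22 ± 0.23) and Vegfa (1.15 ± 0.21) complete the list. The Pim1 call was lost in 4 of 13 alternatives. Among these was leaving out any 1 of the HA T3 libraries (log2 fold change 2.95 to 3.13, adjusted p = 0.0541 to 0.0791). Over all alternatives its log2 fold change ran from 2.46 to 3.57 and its adjusted p reached 0.158. Il4ra, Hif1a and Hp did not pass.

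Gfap, the astroglial filament gene, which also stands in the list of glial markers, was higher in HA than in IgG at each time. It was at 130, 95.5 and 130 CPM in HA T0 and 1515, 1672 and 1960 CPM in HA T3 (log2 fold change 4.12 ± 0.20, adjusted p = 3.63e-12). In IgG it was at 2.58 to 6.98 CPM and then 101 to 141 CPM (log2 fold change 4.18 ± 0.46, adjusted p = 6.40e-05). Over all lists, 6 of 41 tested were higher and 4 lower in HA than in IgG at T0, where 16.0% of genes were higher and 14.4% lower, and 6 of 37 were higher and 4 lower at T3, where 11.8% of genes were higher and 10.2% lower. At T3, 5 targets were higher in HA than in IgG, namely Gfap (3.98 ± 0.31), Timp1 (3.29 ± 0.37), Ccnd1 (2.95 ± 0.33), Myc (2.45 ± 0.53) and Serpina3n (1.77 ± 0.44). In the other direction, Saa3 (-2.13 ± 0.31), Lcn2 (-1.49 ± 0.52) and Pim1 (-0.98 ± 0.30) were lower in HA. The Lcn2 and Pim1 calls did not hold in 8 and 7 of 13 alternatives. No pathway gene passed in the interaction of 45 tested, and DESeq2 called 0. At an unadjusted p under 0.05 the change with time was more positive in HA for 7 and more negative for 1. Of all 10314 genes, 1081 were under that value in either direction.

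**Figure D4:**
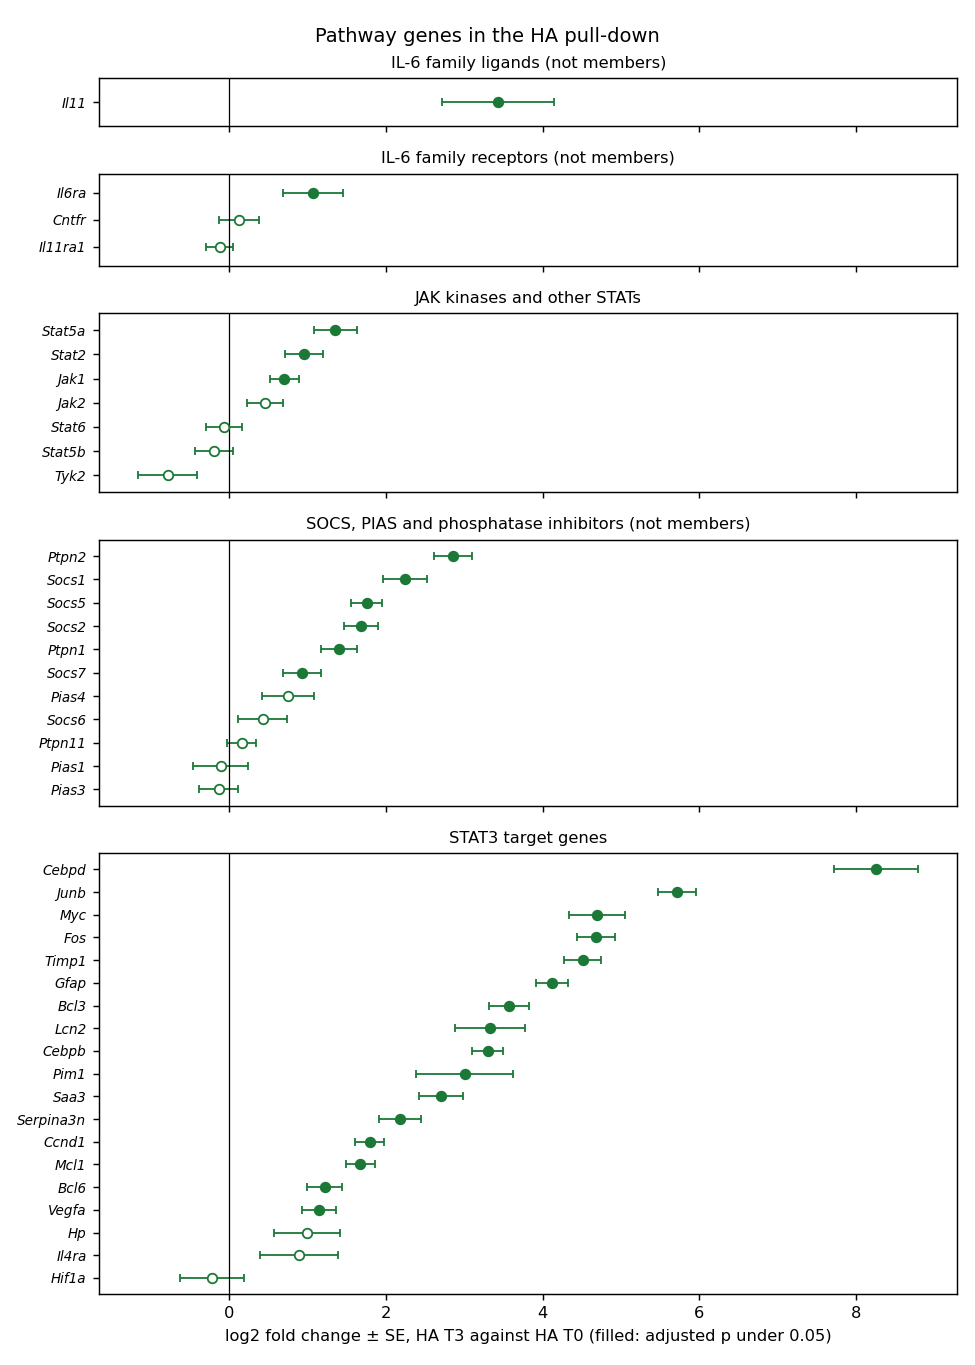
Log2 fold change with SE in HA T3 against HA T0 for 41 of the 43 pathway genes tested, grouped by list and ordered by size, with filled points for an adjusted p under 0.05. The 27 filled points all lie right of 0, from 0.71 for Jak1 to 8.26 for Cebpd, which had 1 count in HA T0.

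The genes whose log2 CPM followed Lif most closely over the 12 libraries, of 10314 compared, were Nlgn2 (Pearson r = 0.949), Irg1 (0.943) and Zfp703 (0.941). For Socs3 they were Ppp1r15a (0.989), Sphk1 (0.989) and Csrnp1 (0.987). These values describe libraries that fall into a T0 and a T3 cluster and differ in depth, and they do not measure the size of a change. In HA, mean Nlgn2 went from 66.7 to 140 CPM, Zfp703 from 175 to 516 CPM and Irg1 from 0.256 to 44.2 CPM. Csrnp1, for example, was at 957 ± 134 CPM in HA T3 and 486 ± 135 CPM in IgG T3, and at 17.1 ± 1.20 and 7.73 ± 2.57 CPM at T0.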

How the data were processed

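Bulk MARS-seq libraries (3′ tags with unique molecular identifiers, UMIs) were made from 12 pull-downs of 6 mice. Before deposition the authors used cutadapt for trimming and STAR 2.4.2a for mapping to mm10, kept unique matches and counted UMIs with HTSeq from 1000 bases upstream to 100 bases downstream of annotated 3′ ends. The deposited values are raw UMI counts for 12975 genes, and the table of the series and the single files held 0 differing values. Up to 8 samples were pooled per library preparation, and which shared a pool is not given in the sources used here.

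Counts were tested with edgeR 4.0.16 (R 4.3.3; quasi-likelihood F-test, robust, TMM, filterByExpr), with Benjamini-Hochberg adjustment over all genes of a contrast and a threshold of 0.05. Contrasts of 2 groups used their 6 libraries and the interaction all 12, without covariates, and the SE was derived from the F statistic. CPM used library totals. Values are mean ± SD of 3 libraries. In simulated data with 4-fold changes, the test found 200 of 200 changed genes in HA T3 against T0 (9903 tested). For the interaction it found 159 of 200 (10041 tested). In simulated IgG T3 against T0, 194 changed genes were among the 5190 genes past the filter, and 176 were found. Lif, Il6 and Lifr did not pass the filter in the measured IgG libraries. The recovered shares therefore cannot be read as the power for members with so few counts. Likeness to Lif and Socs3 was Pearson's r of log2 CPM with a prior count of 2. Motifs were searched on both strands of RefSeq windows.

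HA and IgG libraries of 1 mouse came from 1 homogenate. Their deviations from group means correlated at 0.267, 0.267 and 0.271 at T0 and 0.160, 0.151 and 0.0875 at T3, against -0.190 to 0.00873 between mice. Deviations within a group sum to 0, so positive values within a mouse by themselves lower those between mice. Mouse was fitted as a block in an alternative for HA against IgG and the interaction. T0 and T3 mice share numbers but not animals, so in contrasts of time the block tied only the numbers and is no pairing. Replicates were separate mice. The alternatives were size factor (RLE) and total-count scaling, no filter, at least 5 counts in 1 library, the DESeq2 1.42.0 Wald test, all 12 libraries in 1 fit, the replicate block and leaving out each library.

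The members and gene lists were chosen with earlier results of these data known. Named genes were all members, every pathway gene called in HA T3 against T0 or in the interaction and others where a role needed them, the 3 genes most like Lif and Socs3, and Rpl22. Some genes under this rule are not reported here singly and remain in all counts.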

Additional observations from a re-analysis of the deposited data

How the results depend on the processing

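With time in HA, the 8 members' rise held in each alternative, other than for Clcf1 when all 12 libraries were fitted together (0.92, adjusted p = 0.0628). Lifr passed in none. Total-count scaling moved the median over all genes in that contrast from -0.02 to -0.29 and the share of calls that were higher from 55.4% to 31.1%. Of the 27 pathway genes that rose, Il6ra, Jak1 and Pim1 lost the call in some alternative. In IgG with time, genes called went from 285 to 519 without a filter and to 705 in the fit of all 12 libraries, where 7 members were called (Il6st at 0.86, adjusted p = 0.0381); leaving out single libraries gave 162 to 334 genes and 3 to 4 members. Lif and Il6, below the filter in IgG, were called higher at T3 when kept in, at 6.05 (adjusted p = 0.00102) and 5.96 (adjusted p = 0.00200) without a filter, values set by the treatment of counts of 0. For HA against IgG at T0, DESeq2, all 12 libraries and the replicate block each called 1 member, Clcf1, and leaving out single libraries gave 0 to 1. At T3, size factor scaling, total counts and DESeq2 each called 2 members, Lif higher and Cish lower, and leaving out single libraries gave 1 to 2 members and 849 to 1977 genes.

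The interaction called 34 genes, 20 with size factor scaling, 8 with total counts, 80 with DESeq2, 158 with the replicate block and 5 to 95 with single libraries left out, and no member in any. Besides that of Clcf1 at T0, the replicate block changed the call of no member. With time that block ties different animals that share a number.

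Signs changed only for values that passed no test. In the interaction Lif was at 0.69 with DESeq2, 0.052 with the replicate block and -1.14 to 0.58 with single libraries left out. Il6st in the interaction was at -0.11 with size factor scaling, -0.34 with total counts, -0.11 with DESeq2 and -0.19 to 0.26 with single libraries left out, and at T3 between pull-downs at -0.018, -0.12, -0.016 and -0.085 to 0.37 under the same settings. Osmr in the interaction was at 0.029 with the replicate block and -0.47 to 0.51 with single libraries left out. With single libraries left out, HA against IgG ranged over -0.26 to 0.058 for Stat3 at T0, -1.09 to 0.037 for Osmr at T3 and -0.019 to 0.40 for Socs3 at T3. The cause of these moves was not tested.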
